A study of Rattus norvegicus with 36 samples.

Results

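The genes described here are 9 members of the interleukin-6 (IL-6) family and of the STAT3 pathway that it drives: the ligands Il6, Il11, Lif and Osm, the receptor chains Osmr, Il6r and Il6st, the transcription factor Stat3, and its feedback inhibitor Socs3. They were taken by name, as every non-control probe whose gene name in the array files is one of these 9, among 25597 gene names on the array. This gave 16 probes, all of which passed the filter on dim signals, so that the 9 genes were among the 23721 tested. Female Sprague Dawley rats, aged 13 weeks when treated, had received crystalline silica DQ-12, a quartz dust used as a reference material in inhalation toxicology, at 10 mg per rat in saline through the trachea, or saline alone (vehicle). The accessory lobe of the lung was taken at day 1 (D1), day 30 (D30) or day 180 (D180), from 6 rats per group at each time, and each rat's RNA went to a separate 1-color array, 36 in all. The rats carried no engineered allele, and the lobe was analyzed whole, so fewer cells of a type and less RNA per cell cannot be told apart.

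Most cytokines of the IL-6 family signal through receptor complexes that hold gp130, the chain encoded by Il6st, together with chains particular to the ligand. Kinases of the JAK family attached to these chains phosphorylate STAT3, which enters the nucleus and switches on acute-phase, survival and feedback genes, among them Socs3, whose product shuts the receptor down. In the lung, macrophages, neutrophils and T cells are known sources of oncostatin M (Osm), and epithelial cells, fibroblasts and endothelial cells carry its receptor.

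Some results below turn on which stretch of a transcript a probe reads, so these probes are shown, as the array files give them, in the direction of the transcript and with the positions on the rat build of the array headers (rn4). Osm was read by a probe on chr14:84859880-84859939, plus strand, and by a probe on chr14:84860861-84860920 that starts 981 bases further along the chromosome. The array files give them transcript start bases of 517 and 1618, respectively. These lie further apart than the positions on the chromosome, so they cannot be taken as positions on the same transcript. For the probe further along, only the last 30 bases, on chr14:84860891-84860920, are printed. Its capitals mark ATTTA, a motif searched on this strand alone and found in the last 30 bases of 3.85% of the 45598 probes.
Osm, probe A_64_P133455: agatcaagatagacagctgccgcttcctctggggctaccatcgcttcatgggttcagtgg
Osm, probe A_44_P1112836, last bases: gaaggacatgactaATTTAttgttttattt
For Lif, 2 probes on the plus strand overlap by 58 bases, on chr14:84890560-84890619 and chr14:84890562-84890621. Capitals mark the 4 bases of the overlap at which they differ.
Lif, probe A_43_P12157: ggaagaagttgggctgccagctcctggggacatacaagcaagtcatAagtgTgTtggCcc
Lif, probe A_64_P115666: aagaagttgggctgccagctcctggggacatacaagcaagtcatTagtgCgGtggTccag
Il6 had a single probe, on the minus strand, whose 60 bases are spread over 1285 bases of the chromosome, chr4:457279-458563.
Il6, probe A_44_P371339: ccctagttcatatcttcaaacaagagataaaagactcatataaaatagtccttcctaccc
Socs3 was read by a probe on chr10:107958636-107958695, minus strand, that ends at the stop codon (capitals), and by another one further along that strand.
Socs3, probe A_64_P125883: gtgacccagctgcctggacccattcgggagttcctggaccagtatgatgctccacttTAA

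The arrays had 51.4 to 75.5% of their probes well above background, the scanner software's own test, and their number limits the precision of each value. All 12 markers of alveolar and airway epithelium were well above background on all 36 arrays, as lung tissue should show. Signals are given as quantile normalized log2 values, which compare rats for the same probe but not different probes with each other. A change is the DQ-12 mean minus the vehicle mean on this scale, and a gene was called when its change was at least 2-fold with an adjusted p under 0.05 (limma, Benjamini–Hochberg adjustment over all genes tested). The arrays were scanned on 11 dates, and at D1 only 1 of 3 dates held both groups, with 1 vehicle and 6 DQ-12 arrays. At D30 both of 2 dates did, and at D180 2 of 6, with 4 arrays of each group.

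Osm was called at all 3 times, always higher after DQ-12, and none of the other 8 members was called at any time. That is 1 of 9 members at each time, where 3.12, 1.06 and 3.67% of all genes tested were called at D1, D30 and D180, respectively (2.04, 0.923 and 2.89% higher and 1.07, 0.135 and 0.78% lower). On adjusted p alone, 16.5, 4.06 and 17.1% of all genes passed. The median change of the 9 members was 0.05, 0.17 and 0.14 at the 3 times, and that of all genes −0.01, −0.02 and −0.03.

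Oncostatin M is a cytokine of activated leukocytes that acts on stromal and epithelial cells. At D1, the Osm signal of vehicle animals ran from 7.41 to 8.22 around a median of 7.75, and that of DQ-12 animals from 9.31 to 9.68 around 9.49. The D30 signal ran from 7.96 to 9.06 (median 8.09) without and from 8.82 to 9.89 (median 9.32) with DQ-12. By D180, vehicle animals spanned 7.78 to 8.53 (median 8.24) and DQ-12 animals 9.57 to 10.86 (median 9.82). The groups did not overlap at D1 and D180, and at D30 the highest vehicle rat was exceeded by 4 of 6 DQ-12 rats. Groups with DQ-12 wholly on the higher side were seen for 5.28, 1.83 and 3.89% of all genes at D1, D30 and D180.

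**Figure D1:**
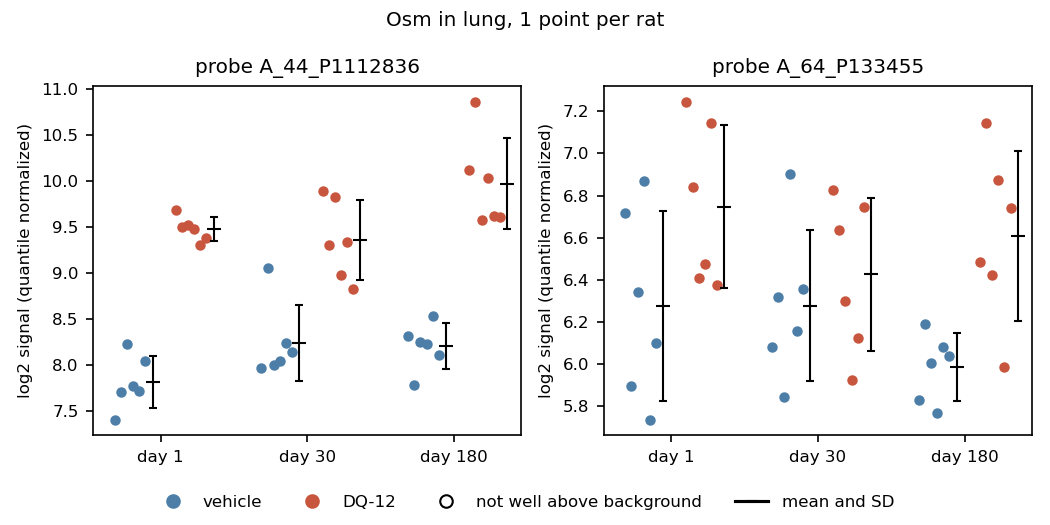
Osm signal in each rat (points; log2, quantile normalized) on its 2 probes, by day and treatment, with the group mean and SD to the right of the points; each panel has its own axis. On probe A_44_P1112836 the groups are apart at D1 and D180 and 1 vehicle rat at D30 (9.06) lies among them, whereas on probe A_64_P133455 the groups overlap at every time.

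The rise of Osm was 3.17-fold at D1 (1.66 ± 0.20 on the log2 scale, SE, limma adjusted p = 4.18e-07; n = 6 per group), 2.17-fold at D30 (1.12 ± 0.20, adjusted p = 6.29e-04) and 3.40-fold at D180 (1.77 ± 0.20, adjusted p = 1.07e-07). The exact two-sided permutation p was 0.00216 at D1 and D180, the smallest that 6 against 6 rats can give, and 0.00649 at D30. The highest vehicle rat at D30, replicate 2, stood apart from the other 5, and without it the rise was 1.28 on the log2 scale. No difference in the rise between times passed the adjusted threshold. From D30 to D180 the rise grew by 0.65 ± 0.29 (SE, limma interaction, unadjusted p = 0.0318, adjusted p = 0.367). It moved by −0.54 ± 0.29 from D1 to D30 (adjusted p = 0.353) and by 0.10 ± 0.29 from D1 to D180 (adjusted p = 0.889). None of the 27 interactions of the members passed, where 2.21, 0.249 and 4.65% of all genes did from D1 to D30, D30 to D180 and D1 to D180 (limma; 3 members' interactions had an unadjusted p under 0.05). No scan date was shared between times, so time and scan date cannot be told apart in these values.

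Arrays scanned on the same date gave changes of Osm of the same sign. At D1 the change within the shared date was 1.25 (1 vehicle rat, 6 DQ-12 rats), at D30 it was 0.99 (4 and 1) and 1.34 (2 and 5), and at D180 1.92 (3 and 3) and 1.84 (1 and 1). The model reported here has no batch term, whereas the study's methods state a batch correction without its variable. With the scan date as a fixed block in the model, Osm was no longer called at D1 (1.25 ± 0.38, SE, limma adjusted p = 0.114), and with the slide as a fixed block it was not called at D1 (1.28 ± 0.38, adjusted p = 0.108) or D180 (1.89 ± 0.48, adjusted p = 0.0524).

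The size of the Osm change also depended on the probe. The other probe lies earlier on the chromosome. Its signal was 5.74 to 6.87 in vehicle and 6.37 to 7.24 in DQ-12 rats at D1, 5.85 to 6.90 and 5.93 to 6.82 at D30, and 5.77 to 6.19 and 5.99 to 7.14 at D180. The groups overlapped at each time, with 2, 0 and 5 of 6 DQ-12 rats above all vehicle rats. Its changes were 0.47 ± 0.21 (SE, limma adjusted p over all probes 0.143), 0.15 ± 0.21 (adjusted p = 0.881) and 0.62 ± 0.21 (adjusted p = 0.0431), none of them 2-fold. Both probes were well above background on all 36 arrays. Taken as the difference between the probes within each array, the change on probe A_44_P1112836 exceeded that on the other by 1.19 at D1, 0.97 at D30 and 1.14 at D180 (exact permutation p = 0.00216, 0.0152 and 0.00216, and 0.00325, 0.0152 and 0.00325 after Benjamini–Hochberg adjustment over the 3 times; this test was chosen after the values were seen). The median of the probes gave no call at D30 (0.63, adjusted p = 0.0205).

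**Figure D2:**
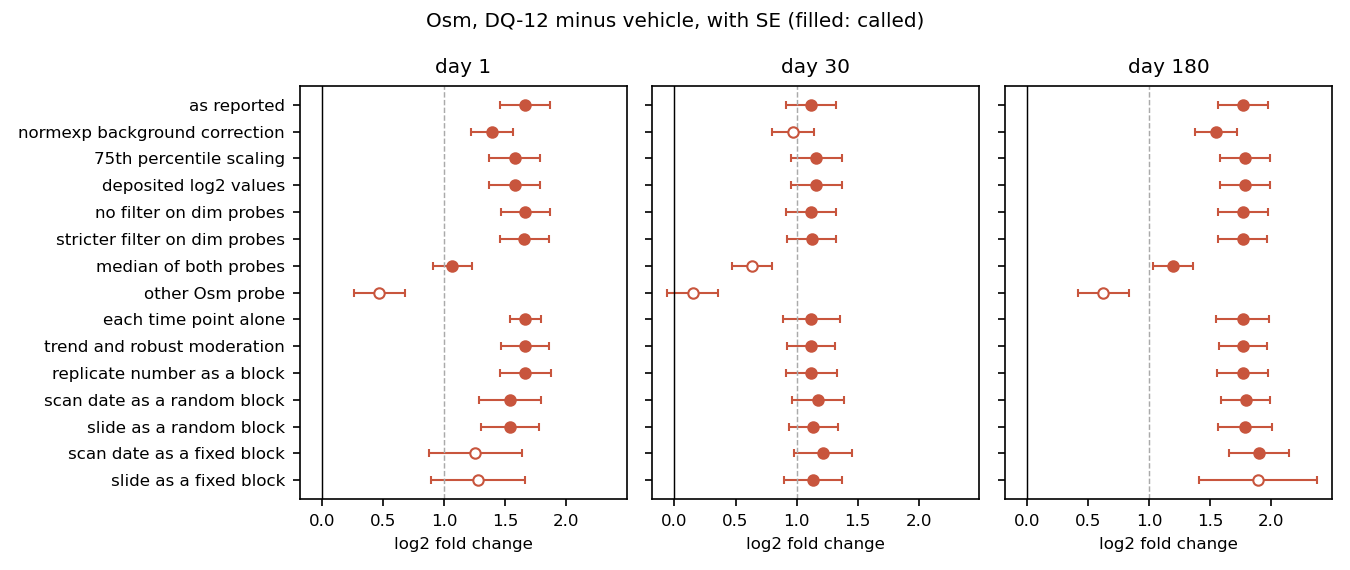
Change of Osm, DQ-12 minus vehicle, as log2 fold change (points) with its SE (bars) at each time under the reported setting and its alternatives; filled points were called, the dashed line marks a doubling. All points lie above 0, and the lowest in each panel are those of the other Osm probe (0.47, 0.15 and 0.62).

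Il6, the founding member of the family, passed the filter on dim signals but was not well above background on any of the 36 arrays. Its signal was 1.88 to 3.11 in vehicle and 1.90 to 2.56 in DQ-12 rats at D1, 1.89 to 2.57 and 1.92 to 2.80 at D30, and 1.89 to 1.93 and 1.93 to 3.92 at D180. At D180, 5 of 6 DQ-12 rats exceeded every vehicle rat (limma adjusted p = 0.0188), but no fold is given because neither group was well above background on any array.

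Il11, a cytokine known for its action on fibroblasts, was dim. It was well above background on 4 to 6 arrays of each group of 6. Its signal at D180 was 5.25 to 5.84 (median 5.63) in vehicle animals and 4.58 to 5.81 (median 5.11) in DQ-12 animals, with 3 of 6 DQ-12 rats below all vehicle rats, and the change was −0.46 ± 0.24 (SE, limma adjusted p = 0.204). The changes at D1 (0.15 ± 0.24) and D30 (0.13 ± 0.24) did not exceed their SE, and that at D1 was −0.09 with 75th percentile scaling.

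Lif encodes leukemia inhibitory factor, and its gene neighbors Osm on chromosome 14. On the probe used, its signal was 5.55 to 6.42 (median 5.85) in vehicle animals and 5.79 to 6.66 (median 6.18) in DQ-12 animals at D1, and the groups overlapped at every time. The changes were 0.26 ± 0.16, 0.03 ± 0.16 and −0.00 ± 0.16 (SE) at D1, D30 and D180, with adjusted p of 0.301 or more (limma). The overlapping probe gave −0.39 ± 0.24, −0.10 ± 0.24 and 0.26 ± 0.24, of opposite sign at each time and also not past the threshold. The remaining Lif probe was well above background on 1 array only. On none of these probes did Lif pass the threshold at a time at which Osm rose.

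**Figure D3:**
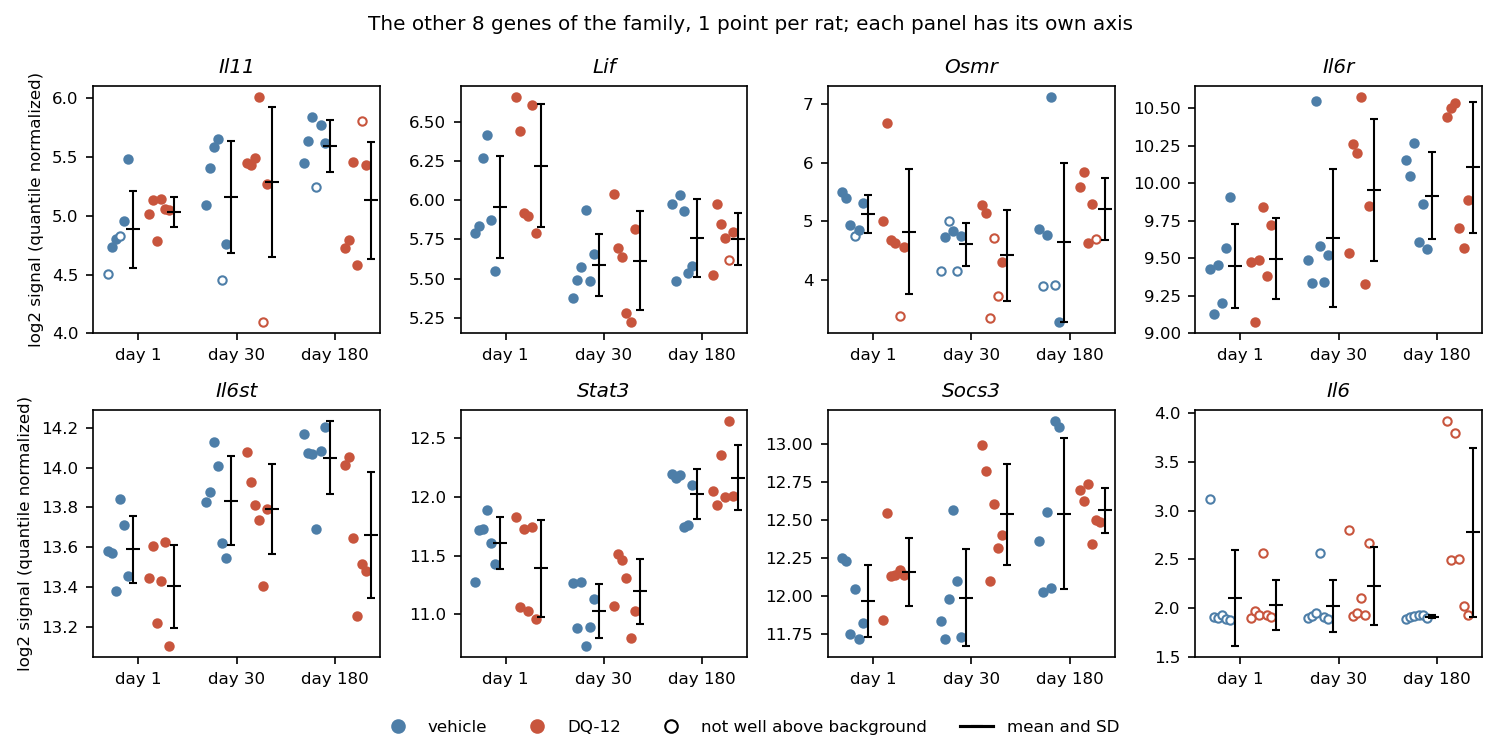
Signal of the other 8 genes in each rat (points; log2, quantile normalized), by day and treatment, with the group mean and SD; each panel has its own axis, and open points were not well above background on that array. The groups overlap in every panel at every time, and all Il6 points are open.

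Among the receptors, Il6st, the shared signaling chain gp130, had the clearest shift. At D180 its signal was 13.69 to 14.21 (median 14.08) in vehicle animals and 13.25 to 14.05 (median 13.58) in DQ-12 animals, and 4 of 6 DQ-12 rats lay below all vehicle rats. Its change at D180 was −0.39 ± 0.13 (SE, limma adjusted p = 0.0395, exact permutation p = 0.0173), past the adjusted threshold but under 2-fold. This compares with the 17.1% of all genes above. With the adjustment over all probes in place of genes the same probe missed it (adjusted p = 0.0513). At D1 and D30 the changes were −0.19 ± 0.13 and −0.04 ± 0.13 (adjusted p = 0.381 and 0.956). The other Il6st probe changed by −0.03 ± 0.23 at D180 (adjusted p over all probes 0.969). Within the 2 shared scan dates at D180, Il6st changed by −0.07 (3 and 3 rats) and −0.56 (1 and 1), and with the scan date as a fixed block by −0.19 ± 0.14 (adjusted p = 0.397), and with the slide as a fixed block by 0.32 ± 0.24 (adjusted p = 0.680), so its direction depends on the batch term.

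Il6r, the ligand-binding chain for IL-6, had signals of 9.56 to 10.27 (median 9.95) in vehicle animals and 9.57 to 10.53 (median 10.17) in DQ-12 animals at D180, and the groups overlapped at all 3 times. Its changes were 0.05, 0.32 and 0.19, each with an SE of 0.22 (limma adjusted p = 0.917, 0.521 and 0.631). Osmr, the chain that pairs with gp130 to bind oncostatin M, was the least certain. It was well above background on only 3 to 5 arrays per group, and 1 DQ-12 array at D180 was left out as an outlier spot. The Osmr signal at D180 ran from 3.28 to 7.12 in vehicle rats and from 4.63 to 5.84 in the 5 DQ-12 rats. Its changes of −0.30 ± 0.47, −0.19 ± 0.47 and 0.57 ± 0.49 (adjusted p = 0.727, 0.937 and 0.503) had 95% confidence intervals from −1.25 to 0.65, from −1.14 to 0.76 and from −0.43 to 1.57, so a 2-fold lower Osmr at D1 and D30 and a 2-fold higher Osmr at D180 lay within the error. Of the 21 changes of the 7 members other than Osm and Il6, 18 had intervals that lay within 2-fold in both directions, and the remaining 3 were those of Osmr. This count holds for the probe used and the model without a batch term. On its other probe, Il6r changed by −0.68 at D180, with an interval from −1.48 to 0.12.

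**Figure D4:**
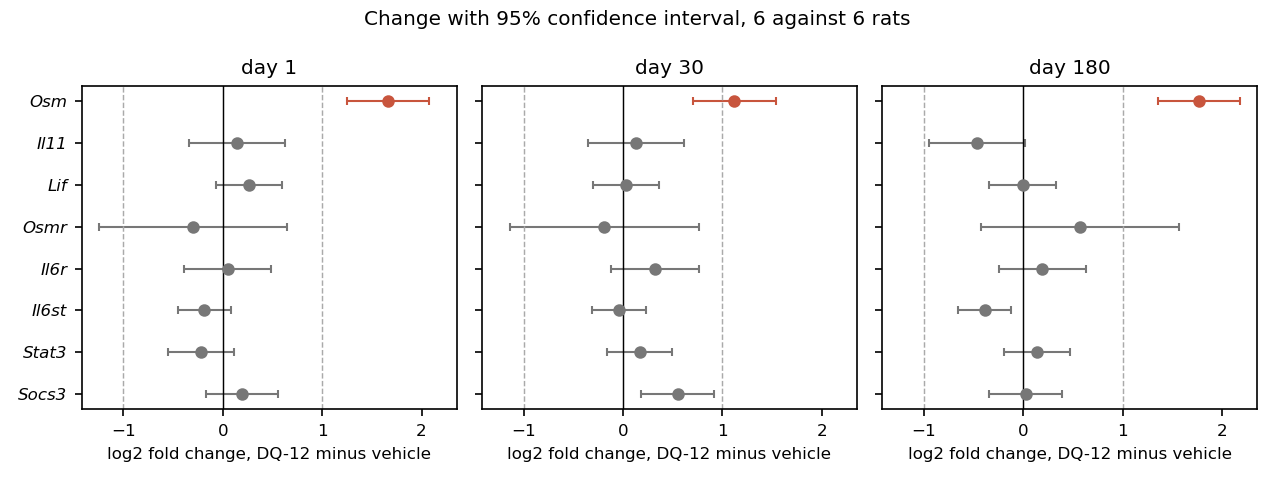
Change of each member other than Il6, DQ-12 minus vehicle, as log2 fold change (points) with its 95% confidence interval (bars) from limma, 6 against 6 rats (5 DQ-12 rats for Osmr at D180); dashed lines mark a doubling and a halving, and red points were called. Osm lies at 1.66, 1.12 and 1.77, and only the intervals of Osm, Socs3 at D30 and Il6st at D180 exclude 0.

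Stat3 RNA, which encodes the transcription factor itself and not its phosphorylated form, had signals of 11.28 to 11.89 in vehicle and 10.96 to 11.83 in DQ-12 rats at D1, 10.73 to 11.27 and 10.80 to 11.52 at D30, and 11.74 to 12.20 and 11.93 to 12.64 at D180. The groups overlapped at each time. The changes were −0.22 ± 0.16, 0.17 ± 0.16 and 0.14 ± 0.16 (SE, limma adjusted p = 0.401, 0.721 and 0.641). In vehicle rats the Stat3 mean was 11.61 at D1, 11.03 at D30 and 12.03 at D180, and these groups differ in scan date as well.

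Socs3, the feedback inhibitor that STAT3 induces, came closest to the threshold at D30. There its signal was 11.72 to 12.56 (median 11.91) in vehicle animals and 12.10 to 12.99 (median 12.50) in DQ-12 animals, and 3 of 6 DQ-12 rats exceeded every vehicle rat. The change at D30 was 0.55 ± 0.18 (SE; 1.46-fold, limma adjusted p = 0.0803, exact permutation p = 0.0195), which did not pass the adjusted threshold. The probe that ends at the stop codon gave 0.46 ± 0.13 (adjusted p over all probes 0.0594, beside 0.106 for the former), with 4 of 6 DQ-12 rats above all vehicle rats. At D1 Socs3 changed by 0.19 ± 0.18 (adjusted p = 0.521) and at D180 by 0.02 ± 0.18 (adjusted p = 0.958). Vehicle rats at D180 were spread from 12.03 to 13.15 and DQ-12 rats from 12.34 to 12.73. Within the shared scan dates Socs3 was higher after DQ-12 at each time, by 0.41 at D1 (1 vehicle rat, 6 DQ-12 rats). At D30 it was higher by 0.47 (4 and 1) and 0.31 (2 and 5), and at D180 by 0.36 (3 and 3) and 0.47 (1 and 1). With the scan date as a fixed block its D180 change was 0.39 ± 0.17 (adjusted p = 0.142). The 3 genes with the group means most like those of Socs3 over the 6 groups were Tigd2, Slc4a4 and LOC102549616, with root mean square differences of 0.06, 0.07 and 0.07 (log2, each gene centered). For Osm, an anchor chosen after its calls were seen, they were Slc16a6, Gpr55 and LOC108348486, with differences of 0.12, 0.14 and 0.18. For Il6 and Osmr no such genes are named, since their signals were in or near the background.

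The rest of the pathway was described with lists of genes from general knowledge. They were chosen with earlier results of these data known, so their counts beside the share of all genes are description and no independent test. Of 7 other ligands, all tested, 1 was called higher at D1, none at D30 and 2 at D180, and none lower, where 2.04, 0.923 and 2.89% of all genes were called higher. Those at D180 were Ebi3 and Il27, the subunits of interleukin-27. Ebi3 rose by 1.08 ± 0.15 (SE, limma adjusted p = 3.58e-06), with no overlap of the groups (8.63 to 9.44 against 7.95 to 8.47). Il27, named with the next ones after its values were seen, rose by 1.14 ± 0.40 (adjusted p = 0.0439) but was well above background on 2 vehicle and 5 DQ-12 arrays only. Il31, a cytokine linked to itch, rose by 1.48 ± 0.52 at D1 (adjusted p = 0.0485), with 3 of 6 DQ-12 rats above all vehicle rats. It was well above background at D1 on only 3 vehicle arrays, and on 6 DQ-12 arrays. Clcf1, which encodes a cytokine of the same family, fell by 0.46 on the log2 scale at D180 (adjusted p = 0.00407), which is under 2-fold.

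Of 5 other receptor chains, 1 was called, lower, at D1 and none at the later times, where 1.07, 0.135 and 0.78% of all genes were called lower. This was Cntfr, the receptor of ciliary neurotrophic factor, which was well above background on 1 vehicle array and on no DQ-12 array (2.38 to 8.91 in vehicle and 1.87 to 2.42 in DQ-12 rats) and was at least 1.05-fold lower at D1 (limma adjusted p = 0.0131). Lifr, the receptor chain for leukemia inhibitory factor, fell by 0.70 on the log2 scale at D180 (limma adjusted p = 0.0345, exact permutation p = 0.0606), under 2-fold. Its groups overlapped, with 3 of 6 DQ-12 rats below all vehicle rats. Of 9 kinases and regulators, Socs1, another feedback inhibitor of JAK kinases, was the only one called, at D1 (1.17 ± 0.39, SE, adjusted p = 0.0348), and its changes at D30 and D180 were 0.00 and 0.30. This is 1 of 9 at D1, against 2.04% of all genes called higher. Socs1 was well above background at D1 on 4 vehicle and 6 DQ-12 arrays. On adjusted p alone, 3 of the 9 were higher at D1, none passed at D30, and 3 were higher and 2 lower at D180, against 16.5, 4.06 and 17.1% of all genes in either direction. Cish, also of the SOCS family, rose by 0.46 at D1 and 0.48 at D180 (adjusted p = 0.00654 and 0.00362), and the kinase gene Jak2 by 0.34 and 0.31 (adjusted p = 0.0116 and 0.0162), all under 2-fold. Also at D180 and under 2-fold, Ptpn6, a phosphatase gene, rose by 0.40 (limma adjusted p = 0.00734), while Pias3, which encodes an inhibitor of STAT3, fell by 0.38 on the log2 scale (adjusted p = 0.00215, with all 6 DQ-12 rats below the vehicle range) and the phosphatase gene Ptpn11 fell by 0.29 (adjusted p = 0.0134). The share of all genes with DQ-12 wholly on the lower side was not counted.

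Of 26 genes known to respond to STAT3, 4 were called higher at D1, 1 at D30 and 6 at D180, and none lower, against the 2.04, 0.923 and 2.89% of all genes called higher. The median change of the list was 0.24, 0.22 and 0.52 at the 3 times, beside −0.01, −0.02 and −0.03 for all genes. Many of these genes also respond to other transcription factors. At D1 the called genes were Serpina3n, a protease inhibitor of the acute phase (2.23 ± 0.31, SE, limma adjusted p = 4.58e-06), Timp1, an inhibitor of matrix metalloproteinases (1.5 ± 0.18, adjusted p = 3.81e-07), Junb, a subunit of AP-1 (1.04 ± 0.19, adjusted p = 1.97e-04), and Lcn2. For Serpina3n, Timp1 and Junb, the groups did not overlap.

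At D180, the called genes with separated groups were A2m, which encodes the protease scavenger alpha-2-macroglobulin (2.41 ± 0.35, limma adjusted p = 4.91e-06), Hp, which encodes haptoglobin (1.5 ± 0.16, adjusted p = 2.41e-08), the kinase gene Pim1 (1.23 ± 0.22, adjusted p = 1.15e-04) and Bcl3, a regulator of NF-kB (1.09 ± 0.19, adjusted p = 6.08e-05). A2m and Pim1 were each well above background on only 4 vehicle arrays at D180, and on 6 DQ-12 arrays. Serpina3n was called as well (1.32 ± 0.31, adjusted p = 0.00247), with 5 of 6 DQ-12 rats above all vehicle rats. Hp was also the gene called at D30 (1.05 ± 0.16, adjusted p = 6.01e-05). Like the macrophage markers Marco and Msr1 below, Hp is in the gene signature that the study drew partly from these arrays. That signature was selected on calls at D30 and D180, so the calls of Hp at these times are not independent of it. Lcn2, which encodes the iron-chelating protein lipocalin 2, had the largest change on the list, 4.61 ± 1.27 at D1 and 4.69 ± 1.27 at D180 (adjusted p = 0.0107 and 0.00793), with overlapping groups and an SD of 1.84 to 2.49 within groups at these times. Vegfa, which encodes an endothelial growth factor, fell by 0.65 on the log2 scale at D180 (adjusted p = 5.17e-05), and Icam1, an adhesion molecule of endothelium, by 0.45 (adjusted p = 0.0129), both under 2-fold.

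**Figure D5:**
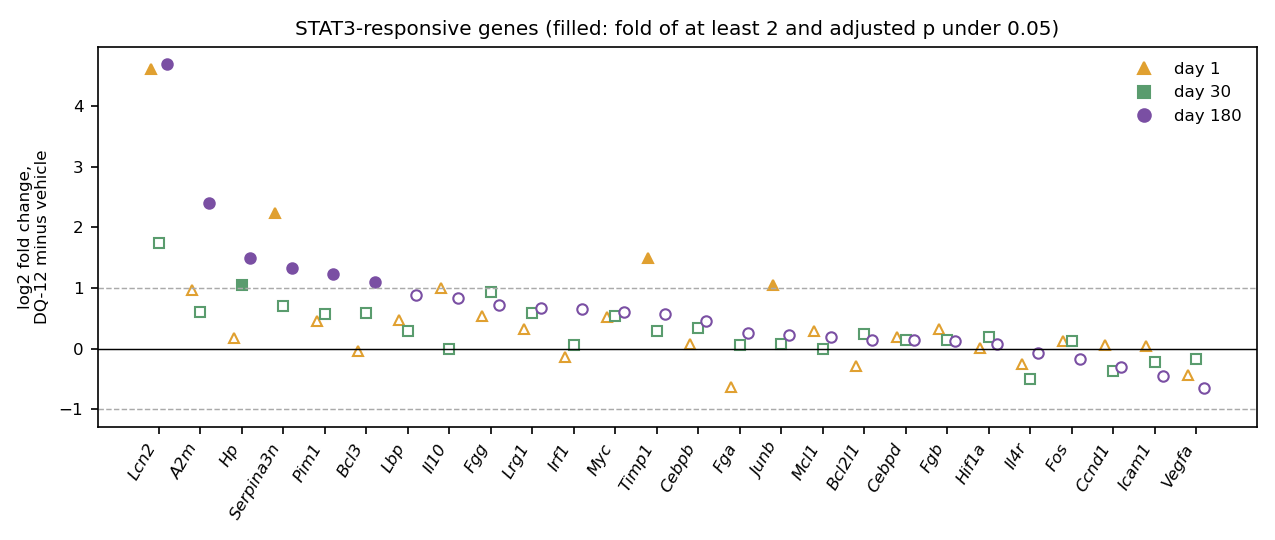
Change of the 26 STAT3-responsive genes, DQ-12 minus vehicle, as log2 fold change at D1, D30 and D180, ordered by the change at D180; filled symbols were called and dashed lines mark a doubling and a halving. Lcn2 is highest at D1 and D180 (4.61 and 4.69), and Vegfa is lowest at D180 (−0.65).

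The batch touched this list too. Within the scan dates that held both groups, 17 of 18 changes of the called genes were above 0, and the exception was Lcn2 on a date with 1 rat of each group (−1.75). With the scan date as a fixed block, 0, 0 and 4 genes of the list were called higher at D1, D30 and D180, and with the slide as a fixed block 0, 0 and 2.

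Marker genes of leukocytes were set beside Osm, with the shares of all genes called higher of 2.04, 0.923 and 2.89% as background. Of 5 neutrophil markers, 1 was called higher at D1, 2 at D30 and 4 at D180, among them Csf3r at D1 (1.41) and S100a9 at D30 and D180 (1.93 and 2.57). Their summed signal (log2) was 13.04 to 14.22 in vehicle and 13.38 to 14.65 in DQ-12 rats at D1, 12.87 to 14.06 and 14.42 to 15.91 at D30, and 13.00 to 13.95 and 15.51 to 16.04 at D180. Of 6 macrophage markers, none was called at D1 and 3 (Marco, Msr1 and Cd68) were called higher at D30 and D180. Cd163, on the same list, fell by 0.89 on the log2 scale at D180 (limma adjusted p = 0.0019, under 2-fold), with all 6 DQ-12 rats below the vehicle range. Mrc1 changed by −0.46 at D1, with all 6 DQ-12 rats below the vehicle range, and by −0.31 at D180, and did not pass (adjusted p = 0.12 and 0.338). Here too, the share of all genes with DQ-12 wholly on the lower side was not counted. The macrophage markers' summed signal was 12.30 to 13.05 and 12.52 to 13.04 at D1, 11.89 to 12.24 and 12.83 to 13.37 at D30, and 12.39 to 13.11 and 13.77 to 14.48 at D180. Both summed signals thus overlapped between groups at D1, when those of Osm did not, and were separated at D30 and D180. The brightest markers weigh most in these sums. For Csf3r, the neutrophil marker called at D1, the groups did not overlap at D1, with DQ-12 higher, as was seen for 5.28% of all genes. The study also reports a rise of neutrophils in lavage fluid from D1. It found macrophages and lymphocytes in that fluid similar to controls at D1 and D30, and higher at D180. Marco stayed within the background in the DQ-12 group at D1 and the vehicle group at D30. Of 3 mast cell markers 2 were called higher at D180, of 3 T cell and 4 B cell markers none at any time. The 4 endothelial and the 4 alveolar type 1 markers all passed the adjusted p on the lower side at D180, with median changes of −0.53 and −0.45 and 17.1% of all genes passing in either direction, at the time of the lower values of Il6st, Lifr, Vegfa and Icam1. The part of these cell types in the results was not tested.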

How the data were processed

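The deposited array files hold spot intensities, per the file headers from Feature Extraction 12.0.1.1, for 1 Agilent array per rat. The authors' deposited log2 values equal the background-corrected intensities after 75th percentile scaling and centering of each probe (median absolute difference 0.00177). Here log2 of the corrected intensity was used without outlier spots (232 to 596 per array), and spots of a probe were averaged. Probes brighter than the 95th percentile of 308 negative controls on 6 or more arrays were quantile normalized, and the probe with the highest mean represented a gene. A limma 3.58.1 model of 6 group means over 36 arrays gave changes and interactions, with Benjamini–Hochberg adjustment per comparison over 23721 genes. Threshold and quantile normalization followed the study's methods. The study names a probe filter based on quantiles without its setting, so the cutoff used here is a choice of this report. More genes were called here (739, 251 and 871 at D1, D30 and D180) than the study reports for DQ-12 at each time. The study's methods also state a batch correction but not its variable, and the reported model has no batch term, a departure from the study. Scan date and slide entered as alternatives. Exact permutation tests covered 924 splits of 6 against 6 rats.

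The 9 members and the gene lists were chosen with earlier results of these data known. Named were all members, the 3 genes most like Socs3 and, per list and time, up to 4 called genes with the largest change among those whose groups did not overlap. The rule also covered the genes most like Il6 and Osmr, which were left out because these signals were in or near the background, and Osm was added as an anchor after its calls were seen. Other list genes (Il27, Il31, Clcf1, Cntfr, Lifr, Socs1, Cish, Jak2, Ptpn6, Pias3, Ptpn11, Cd163, Mrc1, Lcn2, Vegfa, Icam1 and Serpina3n at D180) were named after their values were seen. Of 16 member probes, 12 had an accession in the GRCr8 gene annotation of RefSeq, all with the same symbol. Alternatives were normexp (offset 50), 75th percentile scaling, the deposited values, no or a stricter filter, other probes and their median, each time alone, trend and robust moderation, other thresholds, scan date or slide as fixed or random block (from the array files), a replicate block, and leaving out each rat. The model was tested on simulated data. Figures were drawn in Python 3.11.15 with matplotlib 3.10.9, and all else was run in R 4.3.3 with statmod 1.5.0 and data.table (version 1.17.8). An exon annotation of rn4 was not used here.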

Additional observations from a re-analysis of the deposited data

Results flagged for a closer look

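In 36 combinations of member and group in which all 6 arrays were well above background, 4 held a rat that stood apart from the other 5 by Dixon's criterion, where chance gives about 1 in 20. These were Osm in vehicle rats at D30 (replicate 2, signal 9.06), Il6r in vehicle rats at D30 (replicate 3, 10.55), Il6st in vehicle rats at D180 (replicate 4, 13.69) and Il11 in DQ-12 rats at D1 (replicate 3, 4.79). Without the rat concerned, Osm stayed called at D30 and the Il6st change at D180 was −0.46. Of the 27 interactions of members between times, 0 passed an adjusted p under 0.05 (limma; smallest 0.149), and those of Il6 from D1 to D180 and of Osm and Socs3 from D30 to D180 had an unadjusted p of 0.0168, 0.0318 and 0.0458. The Il6 signals were not well above background on any array.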

How the results depend on the processing

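Of 651 values of the 24 changes (9 members without Il6, 3 times) under other settings, 577 were counted as unchanged. This meant the same direction and side of the threshold or, within single scan dates, a value within 1 SD of the reported change, whatever its sign. Sign changes numbered 57, all of members that were not called. They leave out values within single scan dates, where signs also changed (for instance Lif, −0.052 at D1 and −0.28 and −0.064 at D30). The cause was not tested. Osm was above 0 under every setting. It was not called at D30 with normexp (0.97) or the median of the probes (0.63), at D1 with the scan date (1.25) or slide (1.28) as a fixed block, at D180 with the slide block (1.89), or on its other probe (0.47, 0.15 and 0.62). Leaving out single rats gave 1.58 to 1.75, 1.01 to 1.28 and 1.59 to 1.85, all called. So 0 members were called at D30 with normexp and the median of the probes and at D1 with both fixed blocks. At D180, 2 (Osm and Il6) were called with 75th percentile scaling, the deposited values, the scan date block and a fold of 1.5, 1 to 2 without single rats (2 without DQ-12 replicate 5 or 6), and 3 on adjusted p alone. With the slide block Il6 was called in place of Osm at D180, and 1 interaction (Il6, D30 to D180) passed. Of the STAT3-responsive genes, 0 were called at D1 and D30 with either fixed block and 2 at D180 with the slide block.

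Apart from values within single scan dates, changes with the other sign were, for Lif, −0.15, −0.049 and 0.11 (normexp), −0.14, −0.11 and 0.12 (median of the probes), −0.39, −0.099 and 0.26 (other probe) at D1, D30 and D180, −0.052 at D1 (scan date block), and at D30 −0.14 and −0.10 (scan date and slide blocks) and −0.073 and −0.041 (the same as random blocks). For Osmr they were 0.0086 (normexp) and 0.091 (median of the probes) at D30, and −0.031 (median of the probes), −0.23 (scan date block) and −1.54 (slide block) at D180. For Il11 they were −0.091 and −0.090 at D1 (75th percentile, deposited values) and, at D30, −0.36 and −0.34 (fixed blocks of scan date and slide) and −0.16 and −0.14 (random). For Il6r they were −0.099 at D1 (slide block), −0.022 and −0.041 at D30 (scan date and slide blocks), and −0.24 and −0.68 at D180 (median of the probes, other probe). For Il6st they were 0.026 and 0.095 at D1 (scan date and slide blocks), 0.0048 at D1 (other probe), 0.0033 and 0.0031 at D30 (75th percentile, deposited values) and 0.32 at D180 (slide block). Within single scan dates, values moved by more than 1 SD for Osm at D1 (1.25), Il6st (0.026, −0.31 and −0.072 at D1, D30 and D180), Il11 (−0.83 at D30, 0.17 at D180), Il6r (−0.48 at D180) and Stat3 (−0.24 at D30, 0.48 at D180). Without single rats, Il6r at D1 ran from −0.020 to 0.14, at D30 Lif from −0.057 to 0.11, Il6st from −0.101 to 0.035, Il11 from −0.013 to 0.37 and Osmr from −0.36 to 0.027, and at D180 Lif from −0.059 to 0.051 and Socs3 from −0.080 to 0.14. Socs3 at D30 passed the adjusted p without vehicle replicate 4 (0.66; limma adjusted p = 0.0225), but never 2-fold.

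Vehicle and DQ-12 rats share replicate numbers, but same-numbered arrays did not deviate together (correlations from −0.133 to 0.224 over the 3 times, 6 pairs each). With the replicate block Osm changed by 1.66, 1.12 and 1.77 and the members called stayed 1 at each time. A stricter filter, that a group has no array near background, left 7 members tested.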
